A study of Rattus norvegicus with 18 samples.

Results

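The laminins and nidogens on the arrays were 8 genes of the basement membrane: the laminin α chain genes Lama2, Lama4 and Lama5, the β chain genes Lamb1 and Lamb2, the γ chain gene Lamc1, and the nidogen genes Nid1 and Nid2. All probe sets annotated to 1 of these symbols alone were taken, which gave 13 probe sets of 31256 on 2 chip designs: RAE230A, called chip A, held 11 of them and RAE230B, called chip B, held 2. They stand for 8 of the 13811 genes that have a probe set with a single symbol. A signal above the array median on at least 3 of 9 arrays was met by 9 of the 13 probe sets, and these 9 covered all 8 genes.

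Transcripts were measured in 9 fetal rat calvaria colonies, each grown from 1 flow-sorted primary cell of the skull vault, and every colony was read on both chips. The submitters typed the colonies by marker expression, and 3 colonies (I, II and III) fell in each of 3 types: osteocalcin alone (called osteocalcin), osteocalcin together with adipsin (called both), and neither marker (called neither). Osteoblasts deposit osteocalcin in bone matrix, and fat cells secrete the protease adipsin. All colonies grew for 4 weeks at 37 C in 5% CO2 in α-MEM supplemented with serum, ascorbic acid, BGP and Dex (abbreviations as labelled), so every type saw the same additives. No label gives a genotype, strain or age. RNA came from only 100 to 300 cells of a colony and was amplified before labelling, which limits each colony to 1 measurement of a very small sample. The sources do not say if colonies of 1 type stem from separate preparations, and the p-values cover the spread from colony to colony, which may be partly technical.

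Laminins are trimers of 1 α, 1 β and 1 γ chain that polymerise into the sheet to which cells attach in a basement membrane. Nidogens bind the γ1 chain and connect the laminin sheet with collagen IV and perlecan. In bone, laminins are best known from the membranes around blood vessels, nerves and fat cells.

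The upstream sequences of Lama2, Lamb1 and Lamc1 are shown because they encode chains that can join in 1 trimer, and because these chains carried the widest spread between colonies (Lama2) and the lowest p-values of the chains (Lamb1 and Lamc1). Each is the stretch of 250 bases before the annotated start in RefSeq, build GRCr8, read 5′ to 3′ on the gene's strand. Lama2 lies at chr1:19491896-19492145 on the plus strand, Lamb1 at chr6:53562846-53563095 on the plus strand and Lamc1 at chr13:68051987-68052236 on the minus strand. Capitals mark the GC box (GGGCGG or CCGCCC), to which Sp family factors bind, and the CCAAT box (CCAAT or ATTGG).
Lama2: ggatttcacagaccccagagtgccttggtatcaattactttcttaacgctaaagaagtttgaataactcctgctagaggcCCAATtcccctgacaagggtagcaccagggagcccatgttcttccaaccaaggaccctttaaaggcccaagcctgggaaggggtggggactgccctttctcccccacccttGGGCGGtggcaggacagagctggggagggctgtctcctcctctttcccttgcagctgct
Lamb1: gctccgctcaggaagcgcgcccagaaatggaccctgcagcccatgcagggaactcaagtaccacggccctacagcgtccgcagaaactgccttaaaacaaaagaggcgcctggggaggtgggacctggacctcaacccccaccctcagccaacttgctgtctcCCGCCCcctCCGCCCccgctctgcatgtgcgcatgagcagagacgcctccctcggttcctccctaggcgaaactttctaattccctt
Lamc1: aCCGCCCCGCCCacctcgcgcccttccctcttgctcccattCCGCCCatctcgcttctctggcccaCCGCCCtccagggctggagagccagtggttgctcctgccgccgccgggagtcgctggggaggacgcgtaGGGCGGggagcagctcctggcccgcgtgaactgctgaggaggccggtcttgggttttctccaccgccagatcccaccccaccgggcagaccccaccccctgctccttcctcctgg
The Lamc1 stretch held 5 GC boxes, of which the first 2 overlap, 19 CpG pairs and 71.2% G and C. Lamb1 had 2 GC boxes, 14 CpG pairs and 62.0% G and C. Lama2 had 1 GC box, 1 CCAAT box, 2 CpG pairs and 55.6% G and C. Across the 33469 promoters of the same length in that table, 30.5% held a GC box on either strand and 34.0% a CCAAT box, and the medians were 51.2% G and C and 5 CpG pairs. Of the 8 genes, 6 had an entry there. A TATA box (TATAAA or TTTATA, in 12.9% of all promoters) was found in 1 of the 6, Lama4. These matches describe letters in a window and were not tested as binding sites.

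Levels below are log2(signal + pseudocount) after each array was rescaled to a trimmed mean of 1500, and a difference of 1 is close to a doubling for bright probe sets and understates the change of dim ones. Levels of different probe sets were not compared. The chip A array of osteocalcin I had been deposited on another scale (trimmed mean 64.4) and its hybridization day differed from that of the other 8. Over 100 probe sets present on both chips, 8 of 9 chip A arrays had their own colony as the closest chip B array; the chip A array of osteocalcin III was closer to the chip B array of both III (r = 0.551) than to its own (r = 0.403), so values that move strongly without osteocalcin III are also given without it. After rescaling, the median signal on chip A was 670.1 to 795.1 in osteocalcin, 701.4 to 734.3 in both and 816.7 to 986.8 in neither colonies. Bglap, which encodes osteocalcin, read 27.1 to 55.9, 20.9 to 44.9 and 43.5 to 299, and Cfd, which encodes adipsin, read 136 to 246, 251 to 522 and 113 to 308 in the same order. Both marker transcripts were below the median of every array, so the arrays gave no clear check of the typing. Chip A was processed on fluidics station 1 for the osteocalcin colonies and both I and II, and on station 2 for both III and the neither colonies. On chip B the osteocalcin arrays were hybridized at another time than the both and neither arrays, and for any chip B probe set (Lama5 and 1 of Lama4 among them) that time and the osteocalcin type cannot be told apart. In RNA of whole colonies, fewer cells of a kind and less RNA per cell cannot be told apart either.

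No laminin or nidogen differed between the colony types past an adjusted p of 0.05 by limma in any of the 3 comparisons, and neither did any of the 19312 probe sets tested. The lowest unadjusted p-values belonged to Lamc1, Lamb1 and Nid2. Lamc1 was 1.69-fold higher in both than in osteocalcin colonies and 1.87-fold higher than in neither colonies, Lamb1 was 3.09-fold higher in both than in osteocalcin colonies, and Nid2 was 1.82-fold lower in osteocalcin than in neither colonies. The 9 arrays per chip limit the precision, since the median standard error of a difference was 0.497 log2 units over all probe sets. Values of all 9 probe sets in each colony stand in the plot of levels by type.

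**Figure D1:**
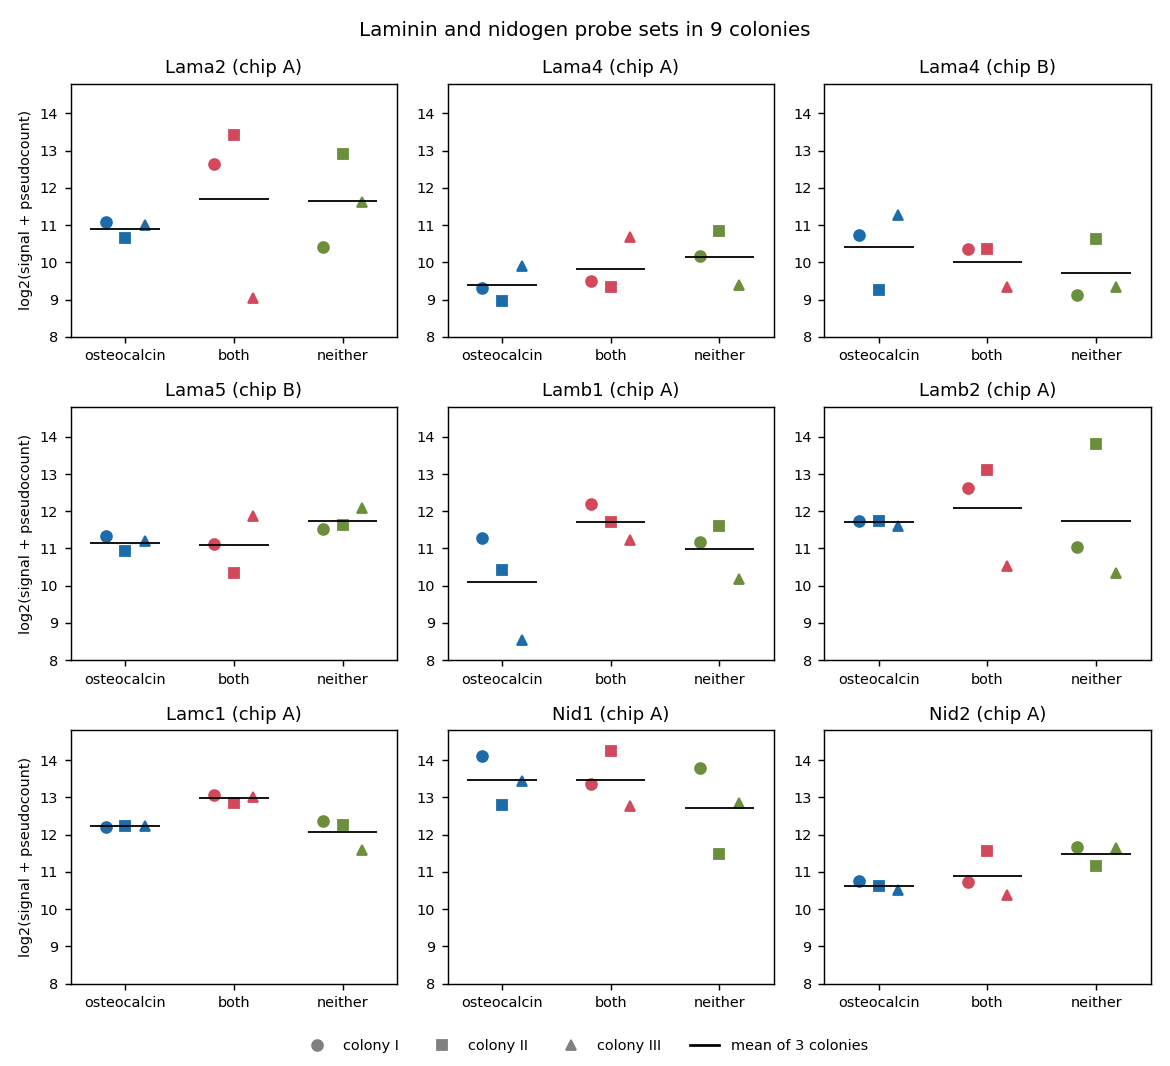
Level of each laminin or nidogen probe set that passed the filter, as log2(signal + pseudocount) on the vertical axis, in 3 osteocalcin, 3 both and 3 neither colonies (symbol: colony I, II or III; line: mean of the type). Lamc1 lies between 12.86 and 13.07 in the both colonies, above the other 6, whereas Lama2 spans 9.03 to 13.41 inside the both type alone.

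Of the α chains, Lama2, which builds the laminins of muscle and peripheral nerve, varied most. Its level (1390404_at) was 11.07, 10.64 and 10.99 in osteocalcin I, II and III, 12.64, 13.41 and 9.03 in both I, II and III, and 10.41, 12.92 and 11.62 in neither I, II and III. The highest values stood in both II, neither II and both I, and the lowest in both III, so the types overlapped fully. From both III to both II the level spanned 4.38 log2 units, or 20.8-fold with the pseudocount. The standard deviation over the 9 colonies, 1.39, was larger than that of 99.1% of the chip A probe sets that passed the filter (median 0.55).

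By type, mean Lama2 was 10.9 ± 0.232 in osteocalcin, 11.7 ± 2.34 in both and 11.65 ± 1.26 in neither colonies (mean and SD of 3 colonies each). The difference between both and osteocalcin was +0.79 (SE 0.904, limma adjusted p = 1), that between osteocalcin and neither was -0.75 (adjusted p = 0.858), and that between both and neither was +0.05 (adjusted p = 0.989). Each was smaller than the SD inside the both and neither types. On chip A no station held both osteocalcin and neither colonies; osteocalcin against neither was -4.74 with station as a block, and -0.11 without neither II. Within station 1, which leaves out both III, Lama2 was +2.13 in both against osteocalcin, and it passed there (limma adjusted p = 0.0289). That fit set both I and II against the 3 osteocalcin colonies, and its p-values were adjusted over chip A alone. With all colonies except both II, the difference between both and osteocalcin was -0.06. The osteocalcin colonies lay within 0.43 log2 units of each other.

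Lama4 encodes the α4 chain of endothelial, muscle and fat cell basement membranes, and its 2 probe sets did not follow each other (r = 0.034 over 9 colonies, each on its own chip). On chip A (1389214_at) the level was 9.31, 8.96 and 9.90 in osteocalcin, 9.49, 9.34 and 10.67 in both, and 10.16, 10.84 and 9.39 in neither colonies. On chip B (1396066_at) it was 10.74, 9.26 and 11.26, then 10.37, 10.35 and 9.34, then 9.13, 10.62 and 9.35. The types overlapped on either chip, and the signs were opposite: both against osteocalcin read +0.45 on chip A and -0.40 on chip B, osteocalcin against neither -0.74 and +0.72, both against neither -0.30 and +0.32, with adjusted p-values of 0.749 to 1. Without osteocalcin III, both against osteocalcin was 0.70 on chip A and 0.02 on chip B, and osteocalcin against neither was -1.0 and 0.30. No direction can be given for Lama4.

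Lama5, the α5 chain found in most adult basement membranes, passed the filter through 1 of 3 probe sets (1396159_at, chip B). Its level was 11.33, 10.94 and 11.19 in osteocalcin, 11.11, 10.35 and 11.86 in both, and 11.51, 11.64 and 12.09 in neither colonies. All 3 neither colonies were above all 3 osteocalcin colonies, by 0.60 on average (SE 0.451, limma adjusted p = 0.759), while the both colonies spread across that range. The difference was -0.71 within station 2, which holds the osteocalcin colonies and neither II and III. On chip A the other Lama5 probe sets were dim, 51.6 to 724 signal units for 1377428_at (above the median on 0 arrays) and 44.5 to 1647 for 1388932_at (on 2 arrays).

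Lamb1 encodes the β1 chain, the β partner in many laminins of mesenchymal cells. Its level (1373210_at) was 11.28, 10.43 and 8.55 in osteocalcin, 12.20, 11.71 and 11.23 in both, and 11.18, 11.61 and 10.17 in neither colonies. Osteocalcin III was the lowest colony by 1.62 log2 units, and osteocalcin I slightly exceeded both III, so that pair of types overlapped. The means were 10.09 ± 1.4, 11.72 ± 0.485 and 10.99 ± 0.738 (SD, n = 3 each). The both colonies exceeded the osteocalcin colonies by 1.63 (SE 0.604, 95% interval 0.32 to 2.93, limma adjusted p = 1). Without osteocalcin III that difference was 0.86. Within station 1 it was 1.87.

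In the other comparisons Lamb1 was 0.90 lower in osteocalcin than in neither colonies (adjusted p = 0.736) and 0.73 higher in both than in neither colonies (adjusted p = 0.69). The former was -0.13 without osteocalcin III, and the latter was 0.24 within station 2, where both III is the only both colony. In its order of means, neighbouring types overlapped.

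Lamb2, the β2 chain of neuromuscular, vascular and kidney basement membranes, was measured by 1367880_at. Its level was 11.75, 11.75 and 11.61 in osteocalcin, 12.63, 13.12 and 10.53 in both, and 11.04, 13.81 and 10.33 in neither colonies. The osteocalcin colonies were within 0.14 log2 units of each other, and both other types held the highest and the lowest colonies. Means were 11.71 ± 0.0819, 12.09 ± 1.37 and 11.73 ± 1.84 (SD, n = 3 each), and the differences of +0.38, -0.02 and +0.37 had adjusted p-values of 0.888 to 1. Within station 2, where both III alone stands for its type, both against neither read -1.20, and with station as a block osteocalcin against neither read -2.36.

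Lamc1 encodes γ1, the γ chain shared by most laminins and the one that nidogen binds. Signals of 1371322_at were 4486, 4598 and 4523 in osteocalcin, 8369, 7210 and 7959 in both, and 5102, 4653 and 2862 in neither colonies. On the log2 scale these were 12.21, 12.24 and 12.22, then 13.07, 12.86 and 13.00, then 12.38, 12.26 and 11.60. All 3 both colonies were above all 6 others, and the osteocalcin colonies lay within the range of the neither colonies.

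The type means of Lamc1 were 12.22 ± 0.0172 in osteocalcin, 12.98 ± 0.106 in both and 12.08 ± 0.421 in neither colonies (mean and SD of 3 colonies each). The both colonies exceeded osteocalcin colonies by 0.76 (SE 0.317, 95% interval 0.07 to 1.44, limma adjusted p = 1) and neither colonies by 0.90 (SE 0.317, 95% interval 0.21 to 1.59, adjusted p = 0.438). The gap between osteocalcin and neither was 0.14 (adjusted p = 0.94). Within station 1, which leaves out both III, the difference from osteocalcin was 0.75. Within station 2, where both III is the only both colony, the difference from neither was 0.92. The second Lamc1 probe set (1370993_at), at 391 to 920 signal units and above the median on 1 array, did not follow the first (r = 0.101), and it read 9.55 ± 0.351, 9.81 ± 0.0465 and 9.86 ± 0.363 by type on the log2 scale (SD, n = 3 each).

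Nid1 encodes nidogen 1 and was bright in every colony through 1371518_at. Its level was 14.12, 12.81 and 13.45 in osteocalcin, 13.35, 14.26 and 12.76 in both, and 13.79, 11.48 and 12.86 in neither colonies. Neither II stood lowest by 1.28 log2 units, and the ranges of osteocalcin and both nearly coincided. Means were 13.46 ± 0.655, 13.46 ± 0.753 and 12.71 ± 1.16 (SD, n = 3 each), and each marker-bearing type exceeded neither by 0.75 (SE 0.574, adjusted p = 0.766 for osteocalcin and 0.662 for both). Without neither II each of these differences was 0.13. Within station 2, where both III is the only both colony, both against neither was 0.05. A second Nid1 probe set (1371032_at, 169 to 993 signal units) was above the median on 1 array and ran slightly the other way over colonies (r = -0.251).

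Nid2 encodes nidogen 2, a homologue with overlapping binding partners. Its level (1388618_at) was 10.75, 10.62 and 10.50 in osteocalcin, 10.72, 11.57 and 10.38 in both, and 11.67, 11.16 and 11.63 in neither colonies. All 3 neither colonies were above all 3 osteocalcin colonies, while both II was among the neither colonies and both I and III were close to the osteocalcin colonies. Means were 10.62 ± 0.128, 10.89 ± 0.614 and 11.49 ± 0.287 (SD, n = 3 each). Osteocalcin was below neither by 0.86 (SE 0.361, 95% interval of the difference -1.64 to -0.08, limma adjusted p = 0.621). Both against neither was -0.60 (limma adjusted p = 0.587), and -1.11 within station 2, where both III is the only both colony. Both against osteocalcin was +0.26 (adjusted p = 1). Without osteocalcin III the difference from neither was -0.80. With station as a block it was -1.63.

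**Figure D2:**
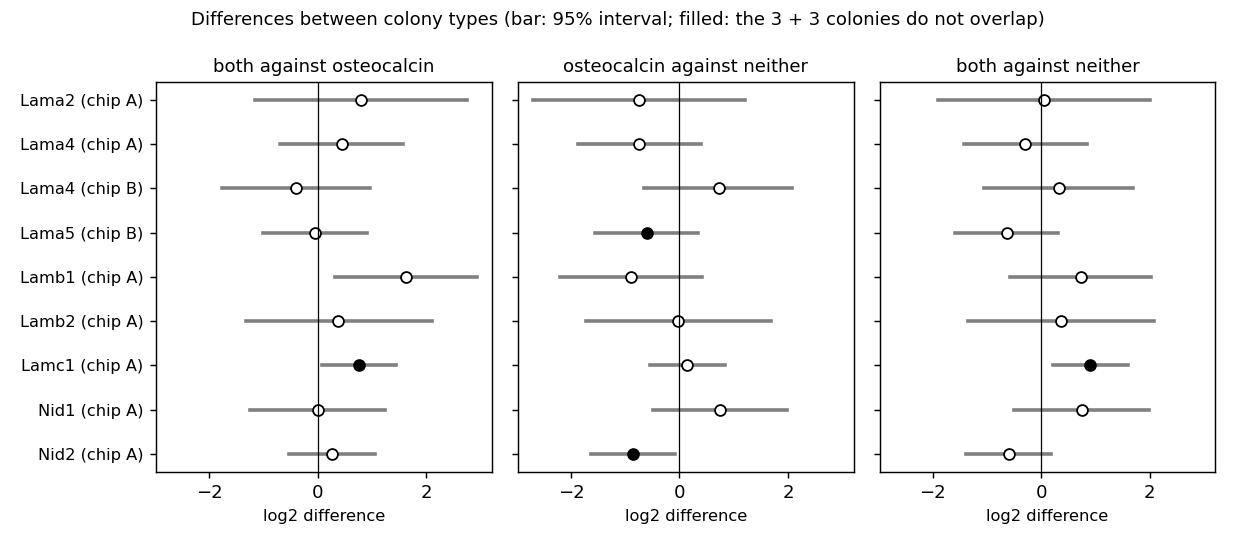
Difference between 2 colony types (horizontal axis, log2 units) for each of the 9 probe sets, with its 95% interval by limma; filled points mark probe sets whose 3 and 3 colonies do not overlap. The intervals of Lamb1 and Lamc1 (both against osteocalcin), Nid2 (osteocalcin against neither) and Lamc1 (both against neither) leave out 0 before adjustment, and all other intervals cover it.

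Counted over the 9 probe sets, 6 were higher and 3 lower in both than in osteocalcin colonies, with a median difference of 0.38 against -0.01 over all probe sets tested. By limma 0 passed the adjusted threshold (0% of all 19312 probe sets), 2 had an unadjusted p under 0.05 (Lamb1 and Lamc1; 3.39% of all) and 1 did not overlap between the types (Lamc1; 10.1% of all). In osteocalcin against neither, 3 were higher and 6 lower, with a median of -0.60 against 0.03. There 0 passed (0% of all), 1 had an unadjusted p under 0.05 (Nid2; 7.5% of all) and 2 did not overlap (Lama5 and Nid2, both lower; 12.2% of all). In both against neither, 6 were higher and 3 lower, with a median of 0.32 against 0.01, 0 passed (0% of all), 1 had an unadjusted p under 0.05 and did not overlap (Lamc1; 9.75% and 14.6% of all). Each of these counts is 0, 1 or 2 of 9 probe sets, and nothing particular to the laminins and nidogens was read from them. The comparisons share colonies: each type enters 2 of them. The probe sets passed the filter on all 9 colonies together, so the counts do not cover the 4 dim probe sets.

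The ratio of 2 genes of 1 chip within a colony was also taken, since the scale of the array cancels in it apart from the pseudocount. Nidogen 1 was set against its homologue nidogen 2, and β1 against β2, which take the same place in a trimer. The log2 ratio of Nid1 to Nid2 was 3.36, 2.18 and 2.95 in osteocalcin, 2.63, 2.69 and 2.39 in both, and 2.12, 0.32 and 1.23 in neither colonies. All 3 neither colonies were below all 6 others, but narrowly, with neither I at 2.12 and osteocalcin II at 2.18. On chip A no station held osteocalcin and neither colonies together, so station and type cannot be told apart in that comparison. The share of other gene ratios without overlap was not computed. The mean of the neither colonies was lower by 1.61 against osteocalcin and by 1.34 against both. The two-sided exact permutation p was 0.1 in either case, the smallest that 3 colonies against 3 allow, so the design could not reach 0.05. With quantile normalization the differences were 1.29 and 1.12 (exact p = 0.2 each), so the types then overlapped. Both against osteocalcin was -0.26 (exact p = 0.5). Without neither II, the lowest colony, the differences were 1.16 and 0.89, and without osteocalcin III the former was 1.55.

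The log2 ratio of Lamb1 to Lamb2 was -0.47, -1.33 and -3.06 in osteocalcin, -0.43, -1.40 and 0.70 in both, and 0.14, -2.20 and -0.15 in neither colonies. Osteocalcin III and neither II had the lowest ratios and both III the highest, and all types overlapped. The differences were 1.24 (both against osteocalcin, exact permutation p = 0.4), -0.88 (osteocalcin against neither, p = 0.5) and 0.36 (both against neither, p = 0.7). Without osteocalcin III the first was 0.52 and the second -0.16.

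**Figure D3:**
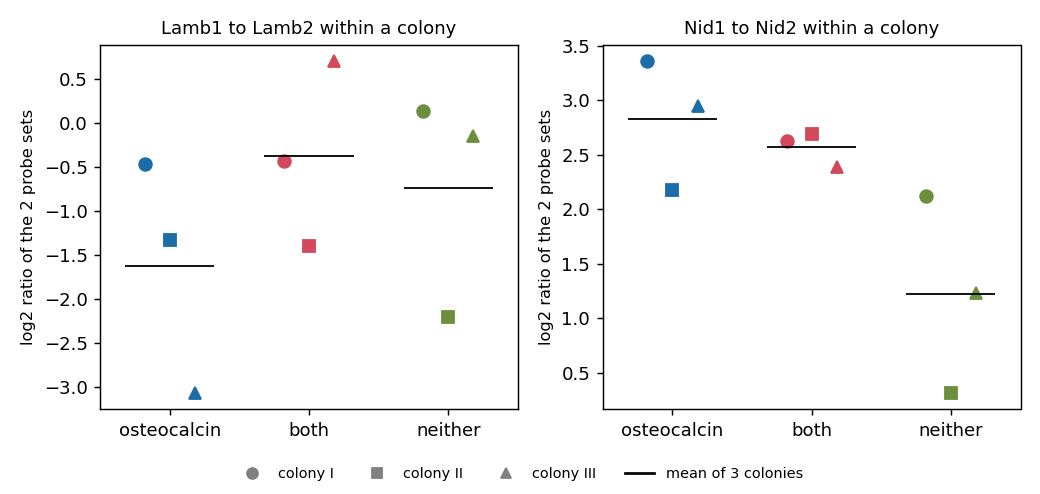
Log2 ratio of Lamb1 to Lamb2 (left) and of Nid1 to Nid2 (right) within each colony, by type (symbol: colony I, II or III; line: mean of 3 colonies). The Nid1 to Nid2 ratio lies at 2.18 or above in the osteocalcin and both colonies and at 2.12 or below in the neither colonies; the Lamb1 to Lamb2 ratio overlaps among all types.

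Over the 9 colonies, 28 pairs of the 8 genes were correlated, with 1 probe set per gene, and 17 coefficients were positive and 11 negative. None reached an adjusted p under 0.05, and 1 had an unadjusted Pearson p under 0.05. That pair was Lama2 and Lamb2, with r = 0.796 (exact permutation p = 0.011, adjusted 0.307) and rho = 0.683 (exact p = 0.0503, adjusted 0.55). Both I, both II and neither II were high in both genes. Without both II and both III, the colonies farthest from the median of Lama2, r was 0.704. Pearson's r of Lamb1 and Lamc1 was 0.573 (exact permutation p = 0.105) and rho was 0.667 (exact p = 0.0589). The lowest coefficient was that of Lama5 and Lamb2, measured on different chips, at r = -0.567 (exact permutation p = 0.11). Lama4 and Lama5 were represented on chip B, so their pairs with the other genes join arrays of different chips. The chip A array of osteocalcin III was closer to the chip B array of both III than to its own. The chip B probe set of Lama4 did not follow that on chip A (r = 0.034), so the Lama4 coefficients depend on the probe set taken.

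Dcn, Fmod and Pla2g2a, matrix and secreted genes named after their values were seen, were also high in both I, both II and neither II. Dcn, the gene of the proteoglycan decorin, read 13.60, 13.79 and 13.11 there and 8.25 to 10.49 elsewhere on the log2 scale. Fmod, which encodes fibromodulin, read 14.25, 14.74 and 13.12 against at most 11.34, and Pla2g2a, a secreted phospholipase, read 15.16, 14.43 and 11.75 against at most 8.61. Col1a2, a type I collagen chain, stood at 16.47, 16.53 and 16.16 there and at 13.41 to 15.30 in the other 6. The summed signal of smooth muscle and pericyte markers was 18570 in both II and 31060 in neither II, the lowest of the 9, but 70880 in both I, above osteocalcin I and neither I. The part of these differences between colonies in the Lama2 and Lamb2 levels was not tested.

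**Figure D4:**
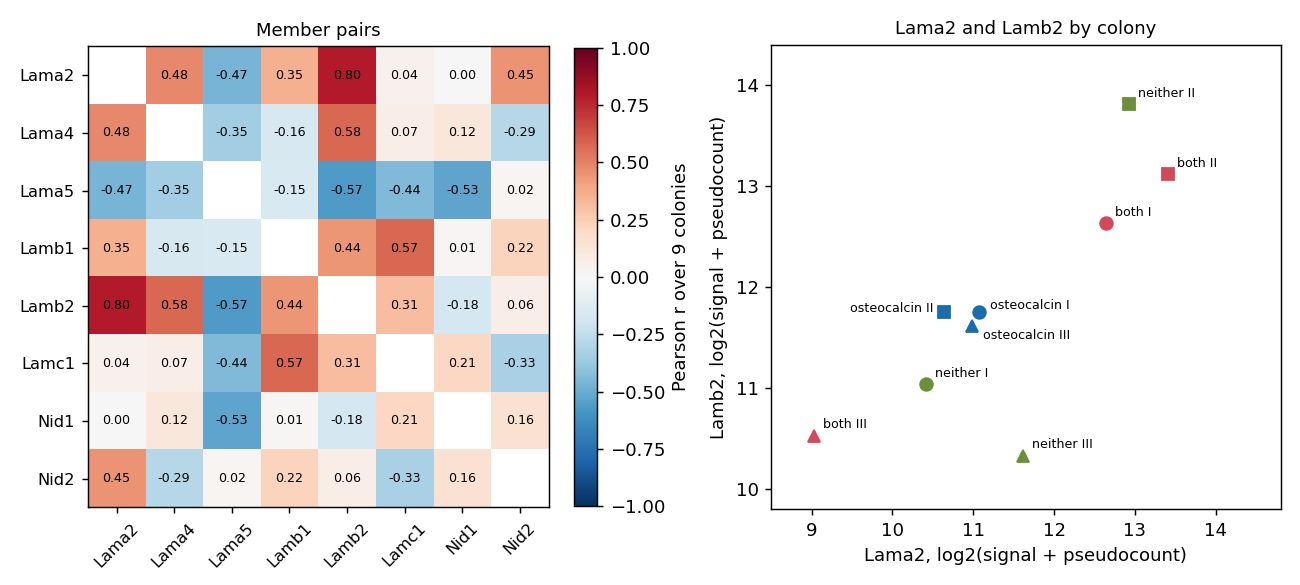
Left, Pearson's r over 9 colonies for each pair of the 8 genes (colour and printed value). Lama4 and Lama5 are chip B probe sets, and the other genes are chip A probe sets. Right, level of Lamb2 against Lama2 in each colony, as log2(signal + pseudocount): both I, both II and neither II stand at the upper right, above 12.6 on either axis.

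For each gene the 3 most similar genes of the same chip were taken by Pearson's r over 9 colonies, as a description with no test, among the probe sets with 1 symbol (7940 for chip A genes, 5208 for chip B genes). Lama2 was nearest to Zfhx4 (r = 0.965), Fgfr2, a fibroblast growth factor receptor (0.964), and Gtf3c2 (0.946), and Lamb2 ranked 140th for it. Lamb2 was nearest to Dync1li2 (0.981), Sec63 (0.978) and Lix1l (0.962). Lamb1 lay nearest to Ralgapb (0.964), Dlg5 (0.95) and Rfc1 (0.94), with Lamc1 in place 629. Lamc1 had less similar neighbours: Gda (0.894), Itgb5, an integrin β chain (0.891), and Alkbh5 (0.867). Nid1 was nearest to Ctnnd1, a catenin of cell junctions (0.961), Ndfip1 (0.945) and Vcl, the adhesion protein vinculin (0.932). Nid2 was nearest to Fbln1, the matrix protein fibulin 1 (0.93), Prim1 (0.925) and Rabgap1 (0.919). On chip B, Lama4 was nearest to Utp15 (0.937), Naa25 (0.931) and Trmt2a (0.919), and Lama5 to Nxn (0.938), Afap1l1 (0.917) and Sema6a (0.912). No laminin or nidogen was among the 3 nearest genes of another on the same chip. Lama4 and Lama5 were ranked on chip B alone, so they could not be found near the chip A genes, nor those near them.

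Other laminin and netrin chains were represented by 5 of 8 listed genes that passed the filter, and 0 passed the adjusted threshold in any comparison. Lamc3, which encodes γ3, read 11.84, 12.05 and 12.25 in osteocalcin, 12.27, 11.58 and 12.12 in both, and 9.36, 11.58 and 11.57 in neither colonies. It was above neither by 1.21 in osteocalcin (limma adjusted p = 0.621) and by 1.16 in both colonies (adjusted p = 0.497), without overlap in either case. Neither I was the low colony, and both II and neither II were equal to 2 decimals. Lamc3 was read on chip B, where the osteocalcin type and the hybridization time cannot be told apart. Lama3, the α3 chain of epithelial laminins, was +0.81 in both against osteocalcin (adjusted p = 1) and -0.69 in osteocalcin against neither (adjusted p = 0.735), or 0.45 and -0.34 without osteocalcin III. Lama1 was -0.42 in both against osteocalcin and -0.52 in both against neither, and the laminin-like guidance protein Ntn1 was -0.74 in osteocalcin against neither and -0.49 in both against neither (adjusted p-values 0.718 to 1).

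Among laminin receptors, 17 of 22 listed genes passed the filter and 0 passed the adjusted threshold in any comparison. In both against osteocalcin 10 were higher and 7 lower (median 0.13 against -0.01 over all probe sets), in osteocalcin against neither 11 and 6 (median 0.34 against 0.03), and in both against neither 12 and 5 (median 0.21 against 0.01). Itga3, the α3 integrin that binds laminin with β1, read 13.05, 12.94 and 13.11 in osteocalcin, 12.44, 11.37 and 12.00 in both, and 12.71, 11.93 and 12.22 in neither colonies. All 3 osteocalcin colonies were above the other 6, by 1.10 over both (SE 0.357, limma adjusted p = 1) and by 0.75 over neither (adjusted p = 0.68). Cd151, a tetraspanin partner of that integrin, was 0.75 lower in both than in osteocalcin colonies (adjusted p = 1).

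Sdc4, a heparan sulphate proteoglycan at the cell surface that binds laminin, read 12.07, 11.90 and 11.57 in osteocalcin, 12.83, 13.40 and 12.01 in both, and 11.06, 11.28 and 11.67 in neither colonies. Both colonies were above neither colonies by 1.41 without overlap (SE 0.384, limma adjusted p = 0.403), and above osteocalcin by 0.90 with overlap (adjusted p = 1). Its relative Sdc2, read on chip B, was 1.58 higher in both than in neither colonies (SE 0.513, limma adjusted p = 0.429). The types overlapped, with both III at 12.92 below neither II at 13.26. Sgcb, a sarcoglycan of the membrane complex that holds the laminin receptor dystroglycan, was also read on chip B. It was 1.57 higher in osteocalcin and 1.32 higher in both than in neither colonies, without overlap (limma adjusted p = 0.61 and 0.438). On that chip the osteocalcin type and the hybridization time cannot be told apart. Itga1, a collagen and laminin integrin, was 1.07 lower in osteocalcin than in neither colonies (adjusted p = 0.68).

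Of 23 other basement membrane genes, 16 passed the filter and 0 passed the adjusted threshold, with 11 higher and 5 lower in both against osteocalcin (median 0.17), 7 and 9 in osteocalcin against neither (median -0.16) and 8 and 8 in both against neither (median 0.02). Tinagl1, a secreted basement membrane protein, read 10.05, 10.53 and 11.44 in osteocalcin, 8.85, 8.29 and 11.22 in both, and 8.80, 9.08 and 9.63 in neither colonies. Osteocalcin colonies were above neither colonies by 1.50 without overlap (limma adjusted p = 0.649), and both against osteocalcin was -1.22 (adjusted p = 1). Col15a1, a collagen next to basement membranes, was 0.74 lower in osteocalcin than in neither colonies without overlap (adjusted p = 0.639). Egfl7 was 0.83 lower in osteocalcin and 0.81 lower in both than in neither colonies (adjusted p = 0.667 and 0.513). Smoc1 (on chip B) was -0.74 and Col15a1 +0.44 (0.68 without osteocalcin III) in both against osteocalcin, and Sparc was +0.52 and Agrn -0.45 in both against neither, with adjusted p-values of 0.693 to 1.

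Genes that cut or remodel basement membrane passed the filter in 13 of 17 cases, and again 0 passed the adjusted threshold; 10 were higher and 3 lower, 5 and 8, and 9 and 4 in the same comparisons (medians 0.19, -0.15 and 0.22). Mmp2, a gelatinase, read 13.95, 13.14 and 13.53 in osteocalcin, 14.58, 14.81 and 14.05 in both, and 13.40, 14.34 and 12.54 in neither colonies. The both colonies were above all osteocalcin colonies by 0.94 on average (limma adjusted p = 1) and above neither by 1.05 with overlap (adjusted p = 0.489). Mmp14, its membrane-bound activator, was +0.80 and +0.92 in the same comparisons (adjusted p = 1 and 0.531). Bmp1, a protease that trims procollagens and laminin chains, was 0.81 lower in osteocalcin than in neither colonies without overlap (adjusted p = 0.648) and 0.62 lower in both (adjusted p = 0.576). Timp1, an inhibitor of such proteases, was +0.57 in both against osteocalcin, and in osteocalcin against neither Adamts1 was +1.04 and Mmp3 -0.60 (adjusted p-values 0.724 to 1).

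Markers of cells that carry basement membranes were read beside the chains, and 0 genes of any marker list passed the adjusted threshold. Of 12 endothelial markers 4 passed the filter, and Pecam1, Kdr, Tie1, Vwf, Emcn and Eng did not. Their summed signal was 3622 to 6343 in osteocalcin, 3136 to 4493 in both and 2957 to 6786 in neither colonies, which overlap. Of the 4 kept markers, 1 was higher and 3 were lower in both than in neither colonies. Flt1, an endothelial receptor, was 1.09 lower in both than in neither colonies without overlap (limma adjusted p = 0.511). Cldn5 was 0.86 lower with overlap (limma adjusted p = 0.655). Tek, read on chip B, went the other way, 0.5 higher with overlap (limma adjusted p = 0.697).

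Of 12 smooth muscle and pericyte markers 10 passed, and their summed signal ranged from 70160 to 246500, from 18570 to 151400 and from 31060 to 122100 in osteocalcin, both and neither colonies. Myh11 was 2.09 and Cnn1 1.54 lower in both than in osteocalcin colonies (limma adjusted p = 1 for each), or 1.22 and 0.99 lower without osteocalcin III. The pericyte receptor Pdgfrb was 0.70 and 0.81 higher in both than in osteocalcin and neither colonies, without overlap (adjusted p = 1 and 0.511). Osteocalcin III had the highest sum of smooth muscle markers (246500, against 70160 and 115700 in osteocalcin I and II) and the lowest Lamb1. For fat cells 5 of 12 markers passed (Fabp4, Plin1, Lpl, Cfd, Cebpa, Cidec and Lep did not), with sums of 12940 to 19370, 13430 to 17210 and 10150 to 15560. For osteoblasts 6 of 12 passed (Bglap, Ibsp, Alpl and Phex did not), with sums of 110500 to 366800, 186900 to 270200 and 276600 to 312600. The 6 were Col1a1, Col1a2, Spp1, Enpp1, Dmp1 and Pth1r. The sums of the both colonies all lay below those of the neither colonies. So did the sums of osteocalcin I (219600) and II (110500), while osteocalcin III (366800) was above all others. Spp1 was also highest in osteocalcin III, at 18.18 on the log2 scale. In both against neither 1 gene was higher (Col1a2, +0.71) and 5 lower, and in both against osteocalcin 2 were higher and 4 lower. Enpp1 was 1.94 lower in both than in osteocalcin colonies without overlap (SE 0.751). It was 1.71 lower in both than in neither colonies with overlap (limma adjusted p = 0.498).

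Schwann cell markers passed in 5 of 9 cases (sums of 7752 to 17400, 5361 to 14520 and 7360 to 12470), without Sox10 and Ngfr, and epithelial markers in 2 of 8 (1213 to 2589, 1028 to 2558 and 1877 to 2732), without Cdh1, Epcam, Krt18, Krt14, Cldn4 and Krt19. Macrophage and osteoclast markers passed in 7 of 10 cases, without Ptprc, Tyrobp and Acp5, and their sum was 15490 to 22740 in osteocalcin, 19820 to 30780 in both and 9409 to 12940 in neither colonies. Without Ctsk the sums were 5359 to 10021, 3828 to 6964 and 5785 to 7316, which overlap. Of the 7 genes, 3 were higher and 4 lower in both than in neither colonies (median -0.76). Ctsk, a collagen-cutting protease of osteoclasts that fibroblasts also make, was 1.95 higher in both than in neither colonies without overlap (limma adjusted p = 0.175), whereas Csf1r was 0.77 and Aif1 0.76 lower (adjusted p = 0.51 and 0.535). The part of these marker lists in the levels of Lamc1, Nid2 and the other chains was not tested.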

How the data were processed

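Each deposited table held 1 linear signal intensity per probe set and array, computed with MAS5 by the authors (per the submitters' processing notes, which state no version). The deposited array records gave fluidics station, hybridization time and chip lot. Each array was rescaled to a 2%-trimmed mean of 1500 and the deposited signals were taken as log2(signal + pseudocount), with a pseudocount of 238.7 on chip A and 336.2 on chip B (median over arrays of the 25th percentile). The 57 control probe sets of each chip were left out, and probe sets above the array median on at least 3 of 9 arrays were kept (9425 and 9887).

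Each chip was fitted with limma 3.58.1 in R 4.3.3 (3 type means, 6 residual degrees of freedom, intensity trend, two-sided), with Benjamini-Hochberg adjustment over both chips together and a threshold of 0.05; this step was tested on simulated data. Ratios were tested by exact permutation over colonies, and correlations by exact permutation with adjustment over 28 pairs. Symbols came from the platform annotation, and a gene with several kept probe sets was represented in lists by the one with the highest mean level. Named were all members, up to 3 genes per list and comparison with the smallest p, and the 3 nearest genes of each member; Dcn, Fmod and Pla2g2a were named after their values were seen. The members and lists were chosen with earlier results of these data known. In the alternatives, scaling, pseudocount, filter, trend, array weights, station, hybridization day, colony number and single colonies were changed. Python 3.11.15, pandas 2.3.3, scipy 1.17.1 and matplotlib 3.10.9 did the rest.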

Additional observations from a re-analysis of the deposited data

How the results depend on the processing

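Over all probe sets the count of calls was 0 in each comparison. In both against osteocalcin it was 2 with the pseudocount at the array median, 1 with signals as deposited and 87 with array weights. Within station 1, where chip A alone held osteocalcin colonies, it was 38. With single colonies left out the count was 0 to 1 (1 without osteocalcin II or neither III). In both against neither it was 1 with the pseudocount at the array median, 10 with array weights and 0 to 3 without single colonies (1 without osteocalcin II or neither I, 3 without neither II). Osteocalcin against neither had 0 calls by limma under every setting run, with 1448 probe sets at an unadjusted p under 0.05 as first fitted. With colony numbers as a replicate block, 2 probe sets were called in both against osteocalcin. Deviations of same-numbered colonies from their type means correlated at -0.15 to 0.325 (chip A) and at -0.0866 to 0.189 (chip B). Colonies with different numbers were not set beside these, so a pairing by number was not tested. As first fitted, the numbers served as names only.

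Among the laminins and nidogens, 2 results passed in an alternative. Lamb1 passed in both against osteocalcin with array weights (2.48, limma adjusted p = 0.0411). Lama2 passed in that comparison within station 1 (2.13, limma adjusted p = 0.0289, adjusted over chip A alone). Of 552 member differences under alternatives, 196 were identical to those reported (settings such as another type's colony left out do not touch the difference); of the 356 others, 43 changed sign. Lamc1 ranged from 0.70 to 1.91 in both against osteocalcin and from 0.66 to 1.05 in both against neither, Lamb1 from 0.86 to 2.59 in both against osteocalcin, and Nid2 from -1.70 to -0.69 in osteocalcin against neither, with no change of sign; the upper values 1.91 and 2.59 came with signals as deposited, where 1 array is on another scale.

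Leaving out single colonies gave these ranges where a sign changed. In both against osteocalcin they were -0.40 to 0.35 for Nid1, -0.13 to 1.17 for Lamb2, -0.08 to 0.52 for Nid2, -0.06 to 2.13 for Lama2, -0.42 to 0.33 for Lama5, -0.98 to 0.02 for Lama4 on chip B and -0.59 to 0.00 for the ratio of Nid1 to Nid2. In osteocalcin against neither they were -0.72 to 1.02 for Lamb2 and -0.10 to 0.29 for Lamc1. In both against neither they were -0.33 to 1.41 for Lamb2, -0.72 to 0.06 for Lama4 on chip A, -0.81 to 1.38 for Lama2 and -0.37 to 0.87 for the ratio of Lamb1 to Lamb2.

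Other settings changed these signs. In both against osteocalcin, Nid1 read 0.000495 with the pseudocount at the array median, 0.07 with quantile normalization, 1.39 as deposited, 0.0012 with array weights, 0.35 with station as a block and within station 1, and 0.33 with hybridization day as a block; Lama5 read 0.30 and Lama4 on chip B 0.45 with the station block, and Lama4 on chip A -0.00562 with array weights. In osteocalcin against neither, Lamb2 read 0.04 with no pseudocount, 0.10 with quantile normalization and 0.07 with array weights, Lamc1 -1.01 as deposited and -0.00269 with array weights, Nid1 -0.64 as deposited and -0.29 with the station block, and Lama4 on chip A 0.51 with the station block. In both against neither, the station block and station 2 alone gave -1.20 for Lamb2, 0.54 for Lama4 on chip A and -2.62 for Lama2. On chip A both III is the only both colony of station 2. Lama2 read -0.13 with no pseudocount. The cause was not tested.

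Hybridization day as a block on chip A leaves the same contrast as leaving out osteocalcin I. No gene of the ratios had another kept probe set on chip A, so other probe sets gave no ratio. The number of arrays, the small RNA samples and 1 usable probe set for most genes limit these results.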
